A study of Mus musculus with 24 samples.

Results

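The 39 genes described here are interferon-stimulated genes, named in a list of symbols and taken wherever the symbol stood in each of 24 expression tables. All 39 were found among the 24346 symbols in every table. The list was meant to leave out the GTPase families, but Mx1 and Mx2, which encode dynamin-like GTPases, are in it. The data are RNA-seq of mouse colorectal tissue, given as FPKM (fragments scaled by transcript length and sequencing depth). Every mouse group had received azoxymethane, a carcinogen, and dextran sulfate sodium, which injures the colon lining (AOM/DSS), so no group is untreated. The genotype labels were c-MAF_KO and WT. Titles divided the c-MAF_KO libraries into 1_hetero_ko, 8_hetero_ko and 8_homo_ko, here called KO-1-hetero, KO-8-hetero and, for the homo title, KO-8-homo, and the WT libraries into wild_young and wild_old, here WT-young and WT-old; each title also holds the word drug, which is not explained. There were 14 tumor libraries (3 from each KO title group, 4 from WT-young and 1 from WT-old) and 10 normal libraries, 2 from each of the 5 title groups. The meaning of the leading 1 and 8, the ages behind young and old, the strain, and the cells in which Maf was deleted are not given in the sources used here, and neither is which libraries came from the same animal. The p-values below therefore measure the spread between these libraries, which may be partly technical.

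Maf itself did not mark the label. It ranged from 2.62 to 7.4 FPKM in the 9 KO-labelled tumors and from 1.63 to 7.26 FPKM in the 5 WT-labelled ones, so KO names the label throughout. Libraries had 12074 to 12889 genes at 1 FPKM or more in normal tissue and 12332 to 13290 in tumors, and relative depth ran from 0.688 to 1.87. Xist is expressed from the inactive X of female cells. In each hetero KO group it was above 1 FPKM in the normal libraries and in tumor replicate 3. It was below 0.1 FPKM in all other libraries of the series. None of the markers of epithelium, smooth muscle, fibroblasts, endothelium, macrophages, neutrophils, dendritic cells, plasmacytoid dendritic cells, T and NK cells, or B and plasma cells was at 0 in all libraries, and the 9 epithelial markers summed to 5503 FPKM or more in every tumor. In bulk tissue, fewer cells of a type and less RNA per cell cannot be told apart.

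Interferons are secreted proteins that put cells into an antiviral and antigen-presenting state. Type I interferons act through a complex that holds STAT2 and IRF9 and binds the interferon-stimulated response element (ISRE), whereas interferon-gamma, made mainly by T and NK cells, acts at gamma-activated sites (GAS) and induces IRF1. Many target genes respond to both. From general knowledge the members were divided into 26 driven mainly by type I interferon, 3 driven mainly by interferon-gamma (Irf1, Socs1 and Cxcl9) and 10 driven by both (Cxcl10, Cxcl11, Ifi35, Bst2, Parp9, Parp14, Dtx3l, Zbp1, Samd9l and Eif2ak2). In the colon these genes are known to respond to microbes, to dying cells and to T cells in inflamed or tumor tissue.

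RefSeq windows of GRCm38.p6, from 250 bases before to 50 bases after a transcript start, were matched to 29 of the 39 members. An ISRE core, GAAA followed by any 2 bases and GAAA again, on either strand, stood in 15 of the 29 (51.7%). It stood in 3.44% of all 32851 windows and in at least 1 window of 3.99% of all 27025 genes. A GAS core, TTCNNNGAA, which reads the same way on the other strand, stood in 6 of the 29 (20.7%), in 8.3% of all windows and in at least 1 window of 9.55% of all genes. By class, the ISRE core was found in 11 of 20 type I members, 3 of 6 members driven by both and 1 of 3 interferon-gamma members. The GAS core was found in 2, 3 and 1 of them. A match is a run of letters and not a measured binding site.

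The following stretches of 100 bases are examples picked by hand from members with a match. Of other members prominent in the comparisons below, Cxcl9 and Xaf1 had no match in their windows, and Parp9, Zbp1 and Usp18 had no window. Each stretch is written 5′ to 3′ in the direction of the gene, wholly upstream of its start, with the matching letters in capitals. Irf1 has a GAS core 90 bases before the start (chr11:53769884-53769983, forward strand), and Socs1, also in the interferon-gamma class, has overlapping ISRE cores instead (chr16:10785567-10785666, reverse strand). Cxcl10 has a distant ISRE core (chr5:92349020-92349119, reverse strand). The type I genes Isg15 (chr4:156200849-156200948, reverse strand), Ifit1 (chr19:34640759-34640858, forward strand), Ifit3 (chr19:34583349-34583448, forward strand) and Rsad2 (chr12:26456503-26456602, reverse strand) have from 1 to 3 cores each, those of Ifit1, Ifit3 and Rsad2 on the opposite strand.
Irf1: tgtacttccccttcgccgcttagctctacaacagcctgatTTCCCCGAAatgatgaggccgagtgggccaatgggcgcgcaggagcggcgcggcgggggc
Socs1: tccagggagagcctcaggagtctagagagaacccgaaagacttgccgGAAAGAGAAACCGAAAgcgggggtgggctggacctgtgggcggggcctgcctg
Cxcl10: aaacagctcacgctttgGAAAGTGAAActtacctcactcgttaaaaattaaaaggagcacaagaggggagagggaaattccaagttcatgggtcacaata
Isg15: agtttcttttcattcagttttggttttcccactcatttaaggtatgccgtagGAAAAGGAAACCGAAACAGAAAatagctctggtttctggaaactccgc
Ifit1: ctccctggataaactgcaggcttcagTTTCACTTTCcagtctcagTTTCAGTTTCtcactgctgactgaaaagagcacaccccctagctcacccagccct
Ifit3: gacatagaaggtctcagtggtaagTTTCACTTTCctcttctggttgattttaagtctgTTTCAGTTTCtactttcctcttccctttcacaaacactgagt
Rsad2: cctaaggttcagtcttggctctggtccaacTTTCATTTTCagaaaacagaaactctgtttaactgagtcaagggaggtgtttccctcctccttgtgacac

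Members with and without an ISRE match had similar medians. The median log2 difference of tumors from normal tissue in WT-labelled libraries was 1.04 for the 15 members with a match and 1.16 for the 14 without. Among KO-labelled libraries the medians were 0.86 and 0.80. Many members also lie together in the genome: 18 of 39 stood within 200 kb of another member, in 7 runs, among them Ifit2, Ifit3 and Ifit1 on chromosome 19, Cxcl9, Cxcl10 and Cxcl11 on chromosome 5, and Parp14, Dtx3l and Parp9 on chromosome 16. Neighbours and close copies (the Ifit, Oas and Mx genes, Trim30a and its relatives) may share reads, and their split rests on the authors' counting.

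The members covered a wide range of levels. Over the 14 tumors, Irf1 had the highest mean, 104 ± 42.8 FPKM (n = 14, SD), followed by Zbp1 with 70.8 ± 30.8 FPKM (n = 14, SD) and Irf7 with 68.9 ± 40.1 FPKM (n = 14, SD). At the low end stood Mx2 with 1.43 ± 1.59 FPKM (n = 14, SD) and Cxcl11 with 0.671 ± 0.548 FPKM (n = 14, SD). Cxcl11, the chemokine made beside Cxcl9 and Cxcl10, was the only member that did not reach 1 FPKM in at least 4 libraries, and it was not tested, which left 38 members among 13799 genes tested. Its highest value was 1.81 FPKM, in KO-1-hetero tumor replicate 1.

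The interferons themselves were barely detected. Of 21 ligand genes, 20 were below 1 FPKM in all libraries, 11 were listed at 0 in all, and none passed the expression filter. The exception was Ifng, the gene of interferon-gamma, with 0.585, 0.0622 and 1.06 FPKM in KO-1-hetero tumors, 0.340, 0.391 and 1.08 in KO-8-hetero tumors, 0.184, 0.0855 and 0.0400 in KO-8-homo tumors, 0.421, 0.428, 0.565 and 1.03 in WT-young tumors and 0.739 in the WT-old tumor. The 3 KO-8-homo tumors were all below the 4 WT-young tumors and below the KO-8-hetero tumors. Ifnb1 was listed at 0 in every library except the WT-old tumor. All 6 receptor genes, 14 sensing genes and 10 signalling genes on the pathway lists were expressed and tested.

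**Figure D1:**
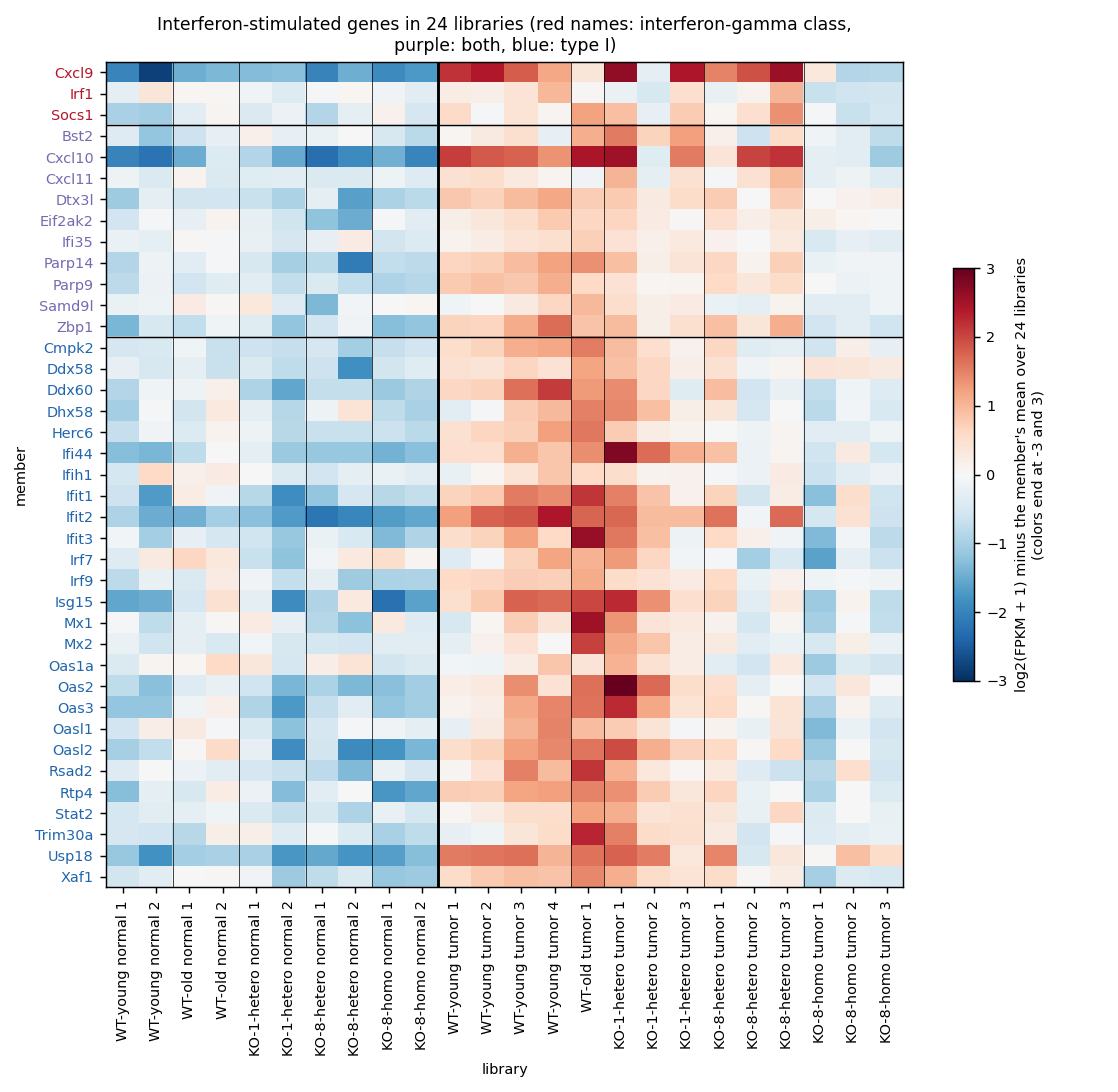
Level of each of the 39 members (vertical axis) in each of the 24 libraries (horizontal axis), as log2(FPKM + 1) minus the member's own mean over all libraries; red is above that mean and blue below, and name colors give the class. Normal libraries are on the left of the thick line, and the 3 KO-8-homo tumors are at the right edge. Among tumor groups, KO-8-homo had the lowest mean for 36 of the 38 tested members. Single columns overlapped: the mean over members was 3.46 in KO-8-hetero tumor 2 and 3.48 in KO-8-homo tumor 2.

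Tumors were first compared with normal tissue. Among WT-labelled libraries, 27 of the 38 tested members were higher in tumors by limma and 0 lower, where 15.5% of all genes tested were called higher. All 38 differences were positive, with a median log2 fold change of 1.22 on the log2(FPKM + 1) scale, a pseudocount that understates the change of low genes, and a median over all genes of 0.02. Among KO-labelled libraries, 23 were higher and 0 lower, where 24.1% of all genes tested were called higher. There 36 of the 38 differences were positive, the median was 0.86 and that of all genes again 0.02. Leaving out the KO-1-hetero libraries lowered the KO count to 17 higher and 1 lower, the latter Irf7 at -0.88 on the log2 scale (adjusted p = 0.0373 by limma), named after its values were seen.

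The chemokines Cxcl9 and Cxcl10 had the largest rise under the WT label, and Cxcl9 also under the KO label. Cxcl9, which draws T cells bearing Cxcr3, measured 41.04, 48.1, 31.6 and 19.7 FPKM in WT-young tumors and 10.9 in the WT-old tumor, against 1.35 and 0.325 (WT-young) and 2.36 and 2.64 (WT-old) in normal tissue. In KO-labelled tumors its lowest, median and highest values were 4.09, 25.1 and 57.4 FPKM, against 1.33, 2.09 and 2.91 in KO-labelled normal tissue. No tumor overlapped the normal libraries of its label. The log2 fold change was 3.48 ± 0.66 (standard error; adjusted p = 0.000601 by limma) under the WT label and 2.65 ± 0.52 (standard error; adjusted p = 0.000308 by limma) under the KO label. Cxcl10, which binds the same receptor, measured 41.01, 34.7, 33.1 and 24.2 FPKM in WT-young tumors and 53.1 in the WT-old tumor, against 1.49 and 1.14 (WT-young) and 2.55 and 6.51 (WT-old) in normal tissue. It had 3.73, 12.01 and 56.7 FPKM as lowest, median and highest in KO-labelled tumors, against 1.08, 2.07 and 4.4 in KO-labelled normal tissue. Its log2 fold change was 3.42 ± 0.60 (standard error; adjusted p = 0.000353 by limma) under the WT label and 2.39 ± 0.47 (standard error; adjusted p = 0.000351 by limma) under the KO label, where 1 KO-8-homo tumor at 3.73 FPKM lay under the highest normal library at 4.4.

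The transcription factors split. Stat2 and Irf9, both part of the complex that binds the ISRE, rose. Irf9 measured 34.3, 35.3, 37.9 and 37.5 FPKM in WT-young tumors and 49.8 in the WT-old tumor, against 12.6 and 19.3 (WT-young) and 16.3 and 26.8 (WT-old) in normal tissue. It had 19.3, 24.5 and 34.3 FPKM as lowest, median and highest in KO-labelled tumors, against 10.2, 12.3 and 20.8 in KO-labelled normal tissue. The lowest WT-labelled tumor was above the highest WT-labelled normal library, while KO-labelled libraries overlapped. Its log2 fold change was 1.06 ± 0.22 (standard error; adjusted p = 0.00124 by limma). Under the KO label its log2 fold change was 0.83 ± 0.17 (standard error; adjusted p = 0.000529 by limma). Stat2 measured 12.1, 13.8, 17.2 and 17.2 FPKM in WT-young tumors and 28.2 in the WT-old tumor, against 7.7 and 9.15 (WT-young) and 9.43 and 10.5 (WT-old) in normal tissue, and 8.53, 15.2 and 25.7 FPKM as lowest, median and highest in KO-labelled tumors, against 5.65, 7.88 and 9.77 in KO-labelled normal tissue, with the same pattern of overlap. Its log2 fold changes were 0.82 ± 0.25 (standard error; adjusted p = 0.0161 by limma) and 0.78 ± 0.20 (standard error; adjusted p = 0.00266 by limma) in the same order; the first missed the threshold without the 3 WT-old libraries (adjusted p = 0.0849) and the second without the KO-1-hetero libraries (0.052). Irf1, an early target of interferon-gamma, measured 108, 106, 123 and 187 FPKM in WT-young tumors and 94.7 in the WT-old tumor, against 75.6 and 121 (WT-young) and 97.4 and 94.7 (WT-old) in normal tissue, with 58.3, 79.4 and 190.4 FPKM as lowest, median and highest in KO-labelled tumors, against 70.7, 86.7 and 96.8 in KO-labelled normal tissue. The groups overlapped, and the difference of 0.32 ± 0.27 (standard error; adjusted p = 0.374 by limma) did not pass; nor did the KO value of 0.03 ± 0.21 (standard error; adjusted p = 0.916 by limma). Irf7, which amplifies type I interferon production, measured 44.1, 56.1, 92.9 and 134 FPKM in WT-young tumors and 121 in the WT-old tumor, against 43.9 and 70.5 (WT-young) and 89.4 and 72.96 (WT-old) in normal tissue, with 18.6, 47.4 and 142 FPKM as lowest, median and highest in KO-labelled tumors, against 24.7, 58.6 and 84.5 in KO-labelled normal tissue. Its groups overlapped too, with limma adjusted p = 0.653 and, under the KO label, 0.878.

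Both feedback genes were examined. Usp18, which strips ISG15 from proteins and blocks the type I receptor, measured 25.4, 26.1, 26.9 and 17.2 FPKM in WT-young tumors and 26.5 in the WT-old tumor, against 3.07 and 1.55 (WT-young) and 3.39 and 3.55 (WT-old) in normal tissue. KO-labelled tumors had 5.43, 12.2 and 29.4 FPKM as lowest, median and highest, against 1.62, 1.97 and 3.52 in normal tissue. Every tumor was above every normal library, and the log2 fold changes were 2.73 ± 0.34 (standard error; adjusted p = 1.66e-05 by limma) and 2.21 ± 0.27 (standard error; adjusted p = 2.37e-06 by limma). Socs1, which inhibits the Janus kinases, measured 5.48, 3.24, 4.77 and 3.59 FPKM in WT-young tumors and 9.04 in the WT-old tumor, against 1.19 and 1.1 (WT-young) and 2.48 and 3.57 (WT-old) in normal tissue, with 1.72, 3.54 and 10.3 FPKM as lowest, median and highest in KO-labelled tumors, against 1.35, 2.41 and 3.72 in KO-labelled normal tissue. Tumors and normal tissue overlapped under both labels. Its log2 fold change was 1.02 ± 0.36 (standard error; adjusted p = 0.0341 by limma) under the WT label and 0.59 ± 0.28 (standard error; adjusted p = 0.0846 by limma) under the KO label. The WT call for Socs1 was lost when any one of WT-young tumors 1 or 3, WT-young normal 1 or 2, or the WT-old tumor was left out, with an adjusted p between 0.0544 and 0.102. It was also lost with library weights (adjusted p = 0.124), quantile normalization (0.0797), the replicate number as a block (0.0576) and no filter on low values (0.0509).

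Among the RNA-binding effectors, all 3 Ifit genes rose under the WT label and 2 of 3 under the KO label. Ifit2, which blocks translation and promotes cell death, went from 3.41 ± 0.868 FPKM (n = 4, SD) in WT-labelled normal tissue to 35.7 ± 11.3 FPKM (n = 5, SD) in tumors without overlap, a log2 fold change of 3.03 ± 0.41 (standard error; adjusted p = 3.42e-05 by limma). The KO value was 2.40 ± 0.32 (standard error; adjusted p = 6.89e-06 by limma). Ifit1, which binds foreign RNA caps, had 18.9, 20.7, 36.4 and 32.97 FPKM in WT-young tumors and 55.1 in the WT-old tumor, against 7.14 and 2.88 (WT-young) and 13.7 and 10.7 (WT-old) in normal tissue, with no overlap and a log2 fold change of 1.87 ± 0.46 (standard error; adjusted p = 0.00438 by limma). It had 4.26, 13.8 and 35.3 FPKM as lowest, median and highest in KO-labelled tumors, against 2.44, 6.12 and 7.94 in KO-labelled normal tissue. The KO log2 fold change, 1.15 ± 0.36 (standard error; adjusted p = 0.0123 by limma), no longer passed without the KO-1-hetero libraries (0.63, adjusted p = 0.216). Its relative Ifit3 measured 11.2, 12.5, 18.6 and 11.97 FPKM in WT-young tumors and 50.8 in the WT-old tumor, against 7.08 and 3.19 (WT-young) and 6.22 and 4.98 (WT-old) in normal tissue, with 2.42, 7.09 and 24.5 FPKM as lowest, median and highest in KO-labelled tumors, against 2.4, 4.11 and 6.45 in KO-labelled normal tissue. WT-labelled groups did not overlap and KO-labelled ones did. Ifit3 had log2 fold changes of 1.58 ± 0.46 (standard error; adjusted p = 0.0122 by limma) and 0.86 ± 0.36 (standard error; adjusted p = 0.0537 by limma), and the WT call was lost without the WT-old libraries (adjusted p = 0.0957).

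The OAS family, whose members sense duplex RNA or resemble those that do, was uneven. Oas2, Oas3 and Oasl2 rose under both labels, whereas Oas1a and Oasl1 did not pass under either. Oas2 had 2.91, 3.19, 7.95 and 3.61 FPKM in WT-young tumors and 9.78 in the WT-old tumor, against 1.01 and 0.424 (WT-young) and 1.59 and 1.92 (WT-old) in normal tissue, with 1.3, 3.29 and 26.8 FPKM as lowest, median and highest in KO-labelled tumors, against 0.322, 0.541 and 1.24 in KO-labelled normal tissue. Oasl2 had 29.97, 32.9, 49.1 and 57.1 FPKM in WT-young tumors and 63.4 in the WT-old tumor. In normal tissue it had 9.73 and 11.9 (WT-young) and 20.9 and 30.9 (WT-old). Its lowest, median and highest values were 8.92, 31.04 and 81.7 FPKM in KO-labelled tumors, against 4.7, 6.17 and 17.1 in KO-labelled normal tissue. Oas2 did not overlap between WT-labelled tumors and normal tissue; for Oasl2 the lowest tumor lay just under the highest normal library. The log2 fold changes of Oas2 were 1.46 ± 0.51 (standard error; adjusted p = 0.0335 by limma) and 1.68 ± 0.40 (standard error; adjusted p = 0.00176 by limma), and those of Oasl2 were 1.37 ± 0.48 (standard error; adjusted p = 0.0330 by limma) and 1.67 ± 0.37 (standard error; adjusted p = 0.00111 by limma). The WT calls did not survive the removal of several single libraries, with adjusted p up to 0.095 for Oas2 (without WT-young normal 2) and 0.104 for Oasl2 (without WT-young normal 1). The call for Oas2 was also lost with library weights (adjusted p = 0.0999), without the WT-old libraries (0.0942), with quantile normalization (0.0724) and with no filter on low values (0.0502). That for Oasl2 was also lost with library weights (adjusted p = 0.123) and with the replicate number as a block (0.0836). Oas1a measured 37.6 ± 11.1 FPKM (n = 5, SD) in tumors and 33.3 ± 9.92 FPKM (n = 4, SD) in normal tissue.

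Of the 4 RNA sensors, Ddx58 (RIG-I) and Ddx60 rose under both labels, and Ifih1 (MDA5) and Dhx58 (LGP2) did not pass. Ddx58 went from 5.02 ± 1.73 FPKM (n = 6, SD) in KO-labelled normal tissue to 11.6 ± 2.65 FPKM (n = 9, SD) in tumors with no overlap, a log2 fold change of 1.11 ± 0.19 (standard error; adjusted p = 7.23e-05 by limma). The 3 genes of ADP-ribosylation, Parp9, its ubiquitin ligase partner Dtx3l, and Parp14, rose under both labels and with small errors. Parp9 had 48.4, 51.7, 49.5 and 60.1 FPKM in WT-young tumors and 42.3 in the WT-old tumor, against 15.5 and 24.2 (WT-young) and 18.3 and 21.4 (WT-old) in normal tissue, without overlap. Its log2 fold change was 1.31 ± 0.17 (standard error; adjusted p = 2.5e-05 by limma), and for Dtx3l 1.48 ± 0.22 (standard error; adjusted p = 7.76e-05 by limma). The KO values were 0.86 ± 0.13 (standard error; adjusted p = 3.44e-05 by limma) and 1.26 ± 0.17 (standard error; adjusted p = 8.64e-06 by limma).

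Among the other 15 effectors, 10 rose under the WT label and 8 under the KO label. Isg15, a ubiquitin-like protein that is attached to others, had 36.6, 45.4, 90.6 and 87.4 FPKM in WT-young tumors and 108 in the WT-old tumor, against 8.17 and 8.64 (WT-young) and 18.1 and 36.2 (WT-old) in normal tissue. All WT-labelled tumors were above all WT-labelled normal libraries, if narrowly, and the log2 fold change was 2.12 ± 0.59 (standard error; adjusted p = 0.0103 by limma). Isg15 had 11.8, 32.3 and 126 FPKM as lowest, median and highest in KO-labelled tumors, against 4.69, 10.7 and 31.9 in KO-labelled normal tissue. The KO log2 fold change, 1.44 ± 0.47 (standard error; adjusted p = 0.0152 by limma), did not pass without the KO-1-hetero libraries (0.93, adjusted p = 0.141). Zbp1, a sensor of Z-form nucleic acid that can start necroptosis, had 70.6, 70.3, 97.3 and 143 FPKM in WT-young tumors and 81.2 in the WT-old tumor, against 16.5 and 31.5 (WT-young) and 25.95 and 40.6 (WT-old) in normal tissue. It had 29.1, 57.6 and 95.5 FPKM as lowest, median and highest in KO-labelled tumors, against 17.6, 24.03 and 41.3 in KO-labelled normal tissue. WT-labelled tumors and normal tissue did not overlap for Zbp1, while KO-labelled ones did, with log2 fold changes of 1.67 ± 0.35 (standard error; adjusted p = 0.00141 by limma) and 1.06 ± 0.28 (standard error; adjusted p = 0.00352 by limma). Rsad2 (viperin), which makes a chain-terminating nucleotide, measured 2.65, 3.66, 8.84 and 5.66 FPKM in WT-young tumors and 14.3 in the WT-old tumor, against 1.66 and 2.43 (WT-young) and 2.04 and 1.75 (WT-old) in normal tissue, with 0.931, 2.59 and 6.1 FPKM as lowest, median and highest in KO-labelled tumors, against 0.370, 1.32 and 2.02 in KO-labelled normal tissue. WT-labelled groups were apart by a small gap and KO-labelled ones overlapped. Its log2 fold changes were 1.25 ± 0.37 (standard error; adjusted p = 0.0140 by limma) and 0.63 ± 0.29 (standard error; adjusted p = 0.0748 by limma); without the WT-old libraries the WT value was 0.94 (adjusted p = 0.144). Bst2 (tetherin), which holds budding virus at the cell surface, measured 50.8, 59.1, 67.9 and 41.2 FPKM in WT-young tumors and 105 in the WT-old tumor, against 36.8 and 21.4 (WT-young) and 31.5 and 41.1 (WT-old) in normal tissue, with 28.3, 54.6 and 145 FPKM as lowest, median and highest in KO-labelled tumors, against 27.4, 41.5 and 53.97 in KO-labelled normal tissue. The lowest WT-labelled tumor and the highest normal library were nearly equal. Its log2 fold changes were 0.93 ± 0.38 (standard error; adjusted p = 0.0649 by limma) and 0.53 ± 0.30 (standard error; adjusted p = 0.150 by limma). Mx1 and Mx2 also did not pass under either label.

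**Figure D2:**
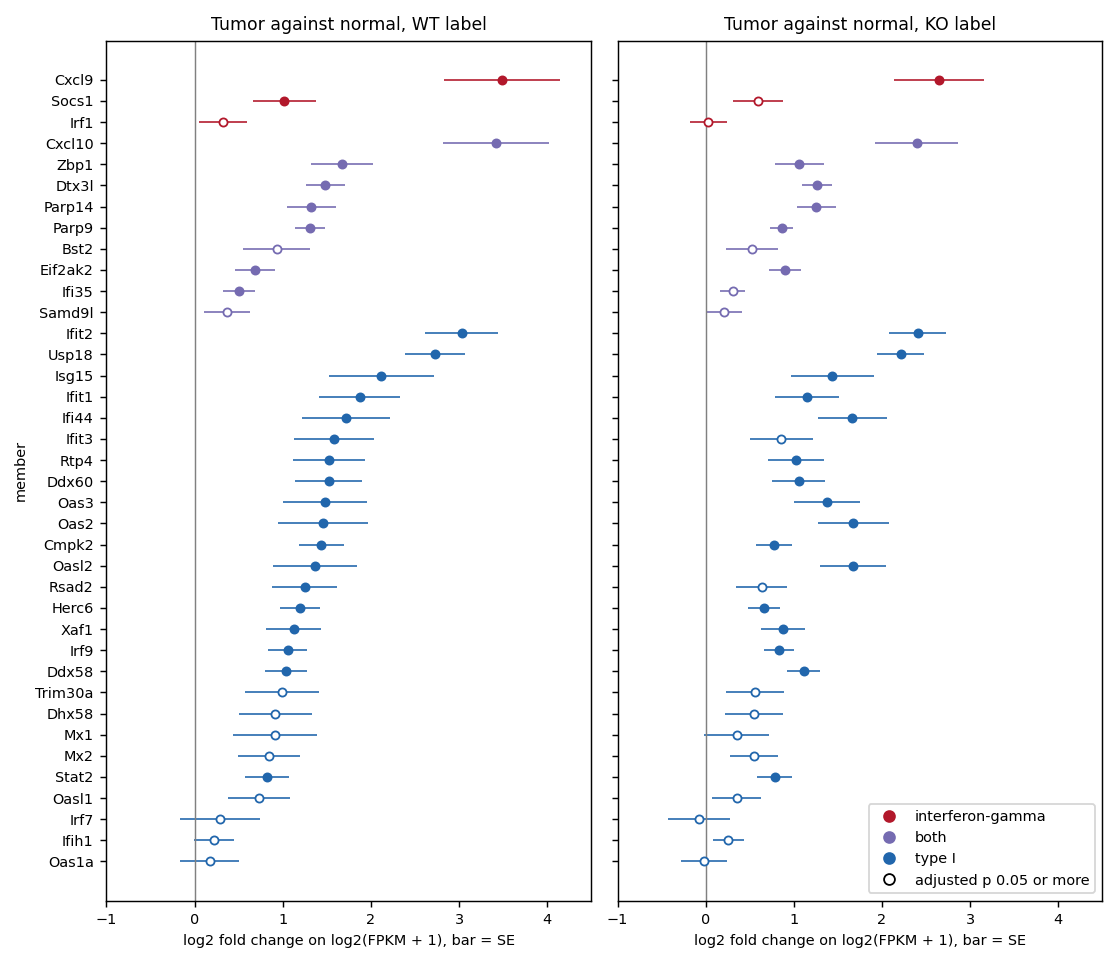
Log2 fold change of tumors against normal tissue on the log2(FPKM + 1) scale (horizontal axis, bars are standard errors) for the 38 tested members (vertical axis, grouped by class), WT-labelled libraries on the left and KO-labelled ones on the right; filled points passed an adjusted p of 0.05. Cxcl9, Cxcl10, Ifit2 and Usp18 lie farthest right in both panels, and Oas1a, Ifih1, Irf7 and Irf1 stay near 0.

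Each class held members that rose in tumors. Under the WT label 2 of 3 interferon-gamma members, 7 of 9 tested members driven by both and 18 of 26 type I members were called higher, with medians of 1.02, 1.31 and 1.22. Under the KO label the counts were 1, 6 and 16, with medians of 0.59, 0.90 and 0.84. Of the 6 other genes on a list of interferon-gamma responders (Ciita, Ido1, Cd274, Il18bp, Nos2 and Serpina3g), 6 rose under the WT label and 5 under the KO label. Ido1, which degrades tryptophan, had 3.33 ± 0.84 (standard error; adjusted p = 0.00542 by limma) and 3.35 ± 0.66 (standard error; adjusted p = 0.000361 by limma), and Ciita, the switch for MHC class II genes, had 1.6 ± 0.47 (standard error; adjusted p = 0.0140 by limma) and 0.79 ± 0.37 (standard error; adjusted p = 0.0860 by limma). Further up, 2 of 6 receptors, 4 of 14 sensing genes and 4 of 10 signalling genes were higher in WT-labelled tumors, against 3, 3 and 4 in KO-labelled tumors. Of all genes tested, 15.5% were called higher under the WT label and 24.1% under the KO label, so the sensing genes were near those shares. In the same libraries, 6 of 8 macrophage markers rose under each label, 4 of 5 neutrophil markers under the WT label and 5 of 5 under the KO label, while all 6 smooth muscle markers fell under both. Macrophage markers summed to 302 to 574 FPKM in WT-labelled normal tissue and 493 to 2209 in WT-labelled tumors, and to 451 to 1006 and 647 to 2250 under the KO label. Their part in the difference was not tested.

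Genotype labels were then compared. In tumors 0 of 38 members passed limma's adjusted threshold, where 0.00725% of all genes did, 1 gene. Even so, all 38 members were lower in the KO-labelled tumors, with a median log2 difference of -0.62, and 19 had an unadjusted p below 0.05, all lower, against 4.6% of all genes. The smallest p-values belonged to Herc6, the main ligase for ISG15 in mice, at -0.89 ± 0.19 (standard error; adjusted p = 0.252 by limma), and Parp9, at -0.64 ± 0.14 (standard error; adjusted p = 0.252 by limma). The medians were -0.49 for interferon-gamma members, -0.49 for members driven by both and -0.73 for type I members. Library quality weights brought 16 members past the threshold, all lower, but the share of all genes called with weights is not given here. Without the KO-8-homo libraries the median was -0.34, and without the KO-8-hetero libraries 1 member, Parp9, passed (-0.79, adjusted p = 0.0279).

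Normal tissue was compared in the same way. There 0 of 38 members passed, as did 0% of all genes, and 3 had an unadjusted p below 0.05, all lower under the KO label (Parp14, Oasl2 and Eif2ak2), against 1.96% of all genes. The median difference was -0.28, and -0.10 without the WT-old libraries. The members with the smallest p were Parp14, at -0.63 ± 0.27 (standard error; adjusted p = 1 by limma), and Oasl2, at -1.02 ± 0.46 (standard error; adjusted p = 1 by limma). The interaction of label and tissue, which asks whether the tumor difference itself changed with the label, was called for 0 members and for 0% of all genes, with 1 member, Parp9, lower at an unadjusted 0.05, against 3.59% of all genes. Parp9 had an interaction of -0.45 ± 0.22 (standard error; adjusted p = 0.986 by limma), and Cmpk2, a mitochondrial nucleotide kinase next to Rsad2, followed with -0.66 ± 0.32 (standard error; adjusted p = 0.986 by limma).

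Within the KO label, the KO-8-homo tumors had the lowest levels. Of the 5 tumor groups, KO-8-homo had the lowest mean for 36 of the 38 members, against 15.5% of all genes; the other two were Usp18 and Ddx58, lowest in KO-8-hetero. Against WT-young tumors, 6 members fell in KO-8-homo by limma, where 0.399% of all genes were called lower, and 32 were below an unadjusted 0.05, where 5.28% of all genes were. All 38 differences were negative, with a median of -1.02, against 0.003 over all genes. The 3 KO-8-homo libraries lay below all 4 WT-young libraries for 26 members, where 11.4% of all genes did, and above them for 0.

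Parp9 and Xaf1 had the smallest p-values. Parp9 measured 27.3, 24.2 and 25.2 FPKM in KO-8-homo tumors, against 48.4, 51.7, 49.5 and 60.1 in WT-young tumors. The groups were far apart, and the log2 fold change was -1.01 ± 0.15 (standard error; adjusted p = 0.00446 by limma). Xaf1, which binds the apoptosis inhibitor XIAP, measured 1.91, 3.38 and 3.18 FPKM against 7.6, 9.1, 9.88 and 9.5, again without overlap, and had -1.41 ± 0.22 (standard error; adjusted p = 0.00503 by limma). These 2 passed in all 16 alternative fits, with adjusted p up to 0.0453 and 0.0402. Ifit2 measured 6.01, 12.9 and 5.54 FPKM against 22.6, 33.6, 35.9 and 53.8, and had -2.06 ± 0.39 (standard error; adjusted p = 0.0203 by limma). Zbp1 measured 29.3, 35.6 and 29.1 FPKM against 70.6, 70.3, 97.3 and 143, and had -1.52 ± 0.29 (standard error; adjusted p = 0.0239 by limma). Both were clear of the WT-young range. Ifi35, a binding partner of NMI, measured 20.7, 23.9 and 22.8 FPKM against 30.7, 33.4, 38.3 and 40.6, and had -0.64 ± 0.13 (standard error; adjusted p = 0.0390 by limma). The sixth, Herc6, outside the 5 with the smallest p, had -1.02 ± 0.21 (standard error; adjusted p = 0.0434 by limma). The count of 6 fell to 2, Parp9 and Xaf1, without KO-8-homo tumor 1 or 3 or without WT-young tumor 3 or 4, and to 3 without KO-8-homo tumor 2 (Ifit2 besides these) or WT-young tumor 2 (Zbp1 besides these); it was again 2 with the replicate number as a block. Ifit2, Zbp1 and Ifi35 were lost in 6, 6 and 8 of the 16 alternatives, whereas library weights called 26 members and a fit of these 2 groups alone 10. The share of all genes called in those fits is not given here, so these counts cannot be read as particular to the members.

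The members with the largest differences, Cxcl9 and Cxcl10, did not pass. Cxcl9 measured 10.5, 4.09 and 4.16 FPKM in KO-8-homo tumors, and Cxcl10 7.08, 6.82 and 3.73, both below every WT-young tumor. Their log2 fold changes were -2.36 ± 0.53 (standard error; adjusted p = 0.0631 by limma) and -2.33 ± 0.53 (standard error; adjusted p = 0.0631 by limma). Irf1 was tightly grouped at 58.3, 60.8 and 63.04 FPKM, under the WT-young values of 108, 106, 123 and 187, with -1.06 ± 0.28 (standard error; adjusted p = 0.138 by limma). Socs1 overlapped, at 3.26, 1.72 and 2.02 FPKM against 5.48, 3.24, 4.77 and 3.59. Isg15 at 11.8, 27.9 and 14.9 FPKM and Ifit1 at 4.26, 17.1 and 7.33 FPKM were below the WT-young tumors, with log2 fold changes of -1.76 ± 0.48 (standard error; adjusted p = 0.160 by limma) and -1.56 ± 0.43 (standard error; adjusted p = 0.168 by limma). Irf7, at 18.6, 47.4 and 36.9 FPKM against 44.1, 56.1, 92.9 and 134, overlapped and had -1.20 ± 0.39 (standard error; adjusted p = 0.265 by limma). At the other end, Ddx58 was little different, at 11.8, 11.4 and 10.6 FPKM against 12.4, 11.6, 14.1 and 12.2, and had -0.14 ± 0.23 (standard error; adjusted p = 0.885 by limma).

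**Figure D3:**
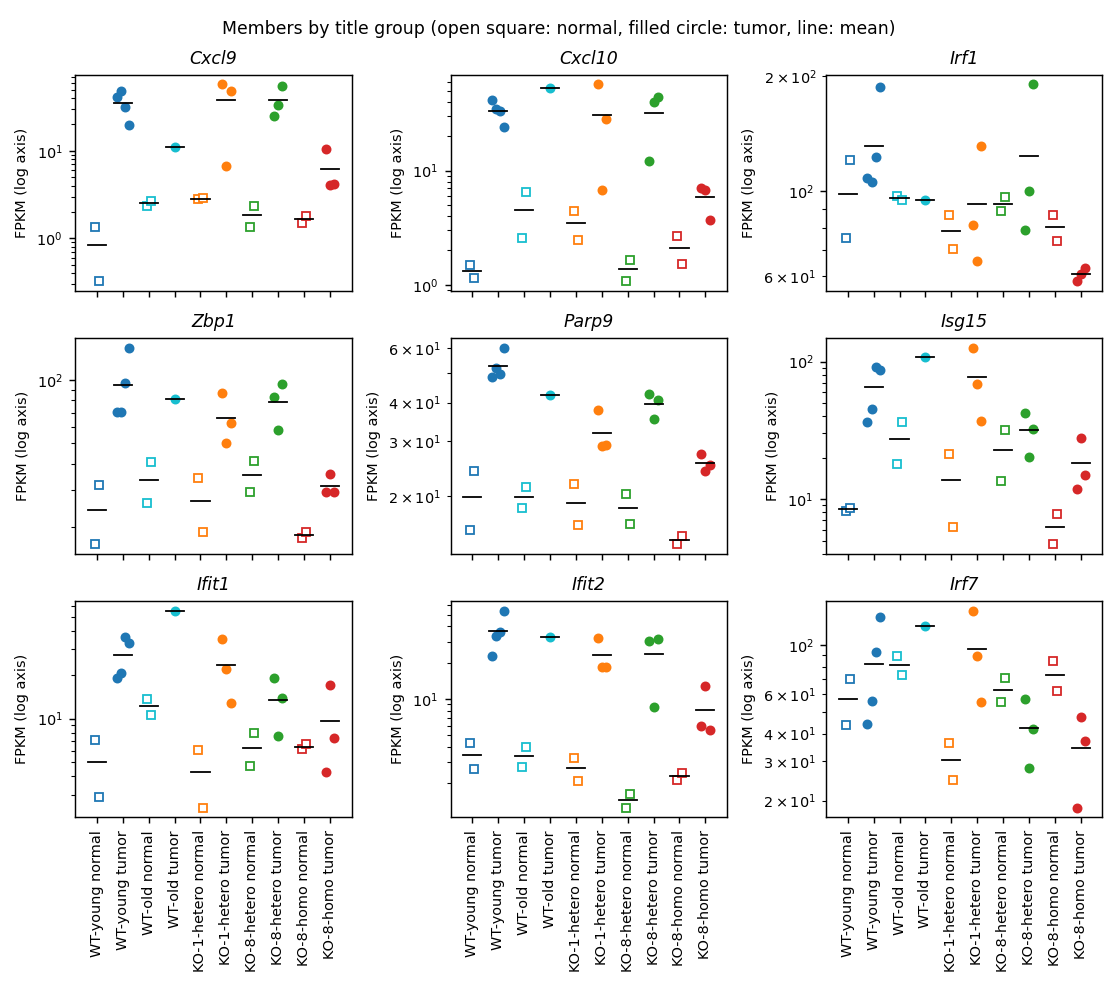
FPKM (vertical log axes) of 9 members in each title group and tissue (horizontal axis); open squares are normal libraries, filled circles tumors, lines the group means. In the Cxcl9, Cxcl10, Irf1, Zbp1, Parp9 and Ifit2 panels the 3 KO-8-homo tumors lie below all 4 WT-young tumors, and in the Irf7 panel tumors and normal libraries overlap.

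The 3 classes had similar medians in KO-8-homo tumors. Against WT-young tumors the median log2 difference was -1.06 for interferon-gamma members, -0.79 for members driven by both and -1.03 for type I members. The list of other interferon-gamma responders was also lower in all 6 genes, 2 of them past the threshold. Ido1 measured 13.01, 8.09 and 8.01 FPKM against 68.3, 59.4, 76.3 and 117 in WT-young tumors and had -2.91 ± 0.57 (standard error; adjusted p = 0.0259 by limma). None of the 6 receptors or 14 sensing genes was called in this comparison. Macrophage markers summed to 1005 to 2250 FPKM in KO-8-homo tumors and 493 to 729 in WT-young tumors, with 1 of 8 called higher. T and NK cell markers summed to 13.2 to 17.5 FPKM and 10.7 to 30.5, with 0 of 6 tested called, and neutrophil markers to 422 to 1474 and 68.6 to 459, with 0 of 5 called. Smooth muscle markers summed to 454 to 970 and 172 to 368 FPKM, with 0 of 6 called. The part of these cells in the result was not tested.

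KO-8-homo tumors were next set against KO-8-hetero tumors, which share the leading number. By limma 0 of 38 members were called lower, where 0.0507% of all genes were, and 12 were below an unadjusted 0.05, all lower, where 2.8% of all genes were. Differences were negative for 36 members, with a median of -0.47. The 3 KO-8-homo libraries lay below all 3 KO-8-hetero libraries for 11 members, where 4.76% of all genes did, and above for 0. Cxcl9 measured 25.1, 33.7 and 54.6 FPKM in KO-8-hetero tumors, all above the KO-8-homo values, with a log2 fold change of -2.46 ± 0.57 (standard error; adjusted p = 0.180 by limma). Zbp1 measured 83.2, 57.6 and 95.5 FPKM there, also without overlap, with -1.28 ± 0.31 (standard error; adjusted p = 0.248 by limma). All 3 interferon-gamma members had an unadjusted p below 0.05 and a median of -1.05, against 4 of 26 type I members and a median of -0.46. The 9 tested members driven by both were all lower, with a median of -0.47, and some of them were below 0.05 too. When 1 library was left out, the interferon-gamma median ran from -1.34 to -0.69 and the type I median from -0.68 to -0.26. Without KO-8-hetero tumor 1, 2 members passed, Cxcl9 (-2.71, adjusted p = 0.0367) and Cxcl10 (-2.68, adjusted p = 0.0232).

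**Figure D4:**
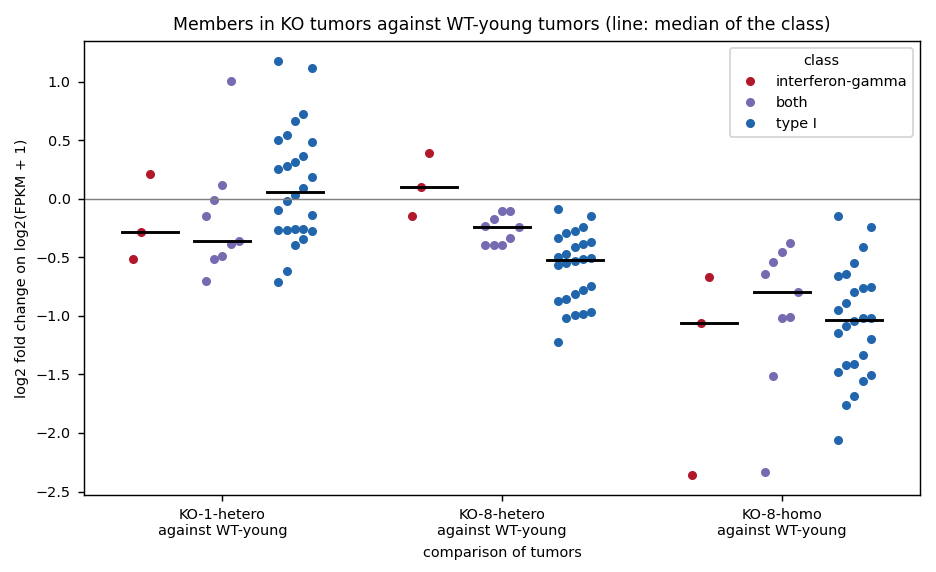
Log2 fold change on the log2(FPKM + 1) scale (vertical axis) of each tested member in the 3 KO tumor groups against the same 4 WT-young tumors (horizontal axis), by class, with lines at class medians. In KO-8-homo every point is below 0. In KO-8-hetero the type I points and the points driven by both are below 0, and the 3 interferon-gamma points surround it. In KO-1-hetero points of each class lie on both sides.

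Against the same WT-young tumors, which all 3 KO groups share, KO-8-hetero and KO-1-hetero gave other values. In KO-8-hetero 0 members were called, where 0.00725% of all genes were, and 11 were lower at an unadjusted 0.05, where 3.5% of all genes were. All 26 type I members were lower, with a median of -0.52. The 9 tested members driven by both were all lower too, with a median of -0.24. The interferon-gamma members had a median of 0.10, which was -0.19 without KO-8-hetero tumor 3 and -0.25 with a term for Xist. Herc6 had -0.78 ± 0.21 (standard error; adjusted p = 0.618 by limma) and Cmpk2 -0.88 ± 0.26 (standard error; adjusted p = 0.657 by limma); without KO-8-hetero tumor 1, 2 members passed, Cmpk2 (-1.19, adjusted p = 0.0253) and Usp18 (-1.53, adjusted p = 0.0462). In KO-1-hetero 1 member was called, where 2.88% of all genes were: Parp9 fell, from the WT-young values to 37.8, 28.99 and 29.2 FPKM, with -0.70 ± 0.15 (standard error; adjusted p = 0.0266 by limma). That call was lost when any one of KO-1-hetero tumors 1, 2 or 3 or WT-young tumors 2 or 4 was left out, with adjusted p from 0.0521 to 0.117; without KO-1-hetero tumor 2, Bst2 was called higher instead (1.25, adjusted p = 0.0381). The median of all 38 was -0.06, with 17 above 0, and ran from -0.31 to 0.07 when 1 library was left out. Marker genes of other cell types were called higher in the same contrast: 5 of 6 for B and plasma cells, 2 of 3 for dendritic cells, 2 of 6 for smooth muscle, 1 of 8 for macrophages and 1 of 6 for T and NK cells. Summed levels were 850 to 943 FPKM in KO-1-hetero against 108 to 316 in WT-young tumors for the B and plasma cell list, 701 to 1058 against 172 to 368 for smooth muscle, and 1190 to 1704 against 493 to 729 for macrophages. The dendritic cell list summed to 13.2 to 23.2 against 7.38 to 13.01 FPKM, and the T and NK cell list to 18.9 to 53.3 against 10.7 to 30.5. The part of these lists in the member values was not tested.

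Between the 2 groups of hetero tumors, by limma, 0 members were called, as were 0% of all genes, and 11 were higher in KO-1-hetero at an unadjusted 0.05, against 4.98% of all genes. All 26 type I members were higher, with a median of 0.72 that ran from 0.42 to 0.97 when 1 library was left out. The 3 interferon-gamma members had a median of -0.37, but without KO-1-hetero tumor 2 it was 0.19, with 2 of the 3 above 0. Without KO-8-hetero tumor 3 it was -0.004, with 1 of the 3 above 0, so the negative median rested on single libraries. The members driven by both had a median of 0.01. Ifi44, a cytoplasmic antiviral protein, measured 24.3, 10.9 and 6.8 FPKM in KO-1-hetero tumors, against 5.76, 2.29 and 2.9 in KO-8-hetero tumors, without overlap, and had 1.58 ± 0.37 (standard error; adjusted p = 0.215 by limma). Bst2 measured 145, 77.7 and 115 FPKM against 54.6, 31.6 and 72.1, also without overlap, and had 1.11 ± 0.30 (standard error; adjusted p = 0.218 by limma). Bst2 passed without KO-8-hetero tumor 3 (1.37, adjusted p = 0.0421). The genotype word is hetero in both groups, so the contrast is between the leading numbers 1 and 8. B and plasma cell markers summed to 850 to 943 FPKM in KO-1-hetero tumors and 128 to 647 in KO-8-hetero tumors, and macrophage markers to 1190 to 1704 and 647 to 953. T and NK cell markers summed to 18.9 to 53.3 and 9.33 to 23.8 FPKM, and neutrophil markers to 61.1 to 188 and 157 to 1704. At an unadjusted 0.05, 5 of 6 B and plasma cell, 4 of 8 macrophage and 3 of 6 T and NK cell markers were higher in KO-1-hetero and 3 of 5 neutrophil markers were lower; their part was not tested.

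The class contrast varied between libraries within these groups. In each library the mean log2(FPKM + 1) of the 26 type I members was subtracted from that of the 3 interferon-gamma members. The difference was 0.50, -0.30 and 1.74 in KO-1-hetero tumors, 0.76, 1.93 and 2.32 in KO-8-hetero tumors, 1.41, 0.04 and 0.52 in KO-8-homo tumors, and 1.5, 1.17, 0.66 and 0.52 in WT-young tumors. It was -0.23 in the WT-old tumor and 0.23 to 1.28 in normal libraries. KO-1-hetero tumor 2 and the WT-old tumor were the only libraries below 0. KO-1-hetero tumor 2 had 6.78 FPKM of Cxcl9 and 4.87 of Ido1, against 57.4 and 45.00 in tumor 1 of that group, while its Isg15 was 68.4 FPKM, above any KO-8-hetero tumor. The WT-old tumor had the highest type I mean of any library, 4.73. Among tumor group means it was highest for 27 of the 38 members, against 36.2% of all genes, and it was lowest for 34.6% of all genes. Yet its Cxcl9 was 10.9 FPKM and its Ido1 5.22, below every WT-young tumor. Ciita in that tumor was 28.3 FPKM, above all others, and it is a single library without a replicate. Its Socs1 was above every WT-young tumor, and the list of other interferon-gamma responders summed to 154 FPKM, against 131 to 203 there. B and plasma cell, T and NK cell and dendritic cell markers summed to 1815, 64.3 and 36.2 FPKM, the highest of any library. Smooth muscle markers summed to 2852 and neutrophil markers to 15.4, against 172 to 368 and 68.6 to 459 in WT-young tumors. Their part was not tested.

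**Figure D5:**
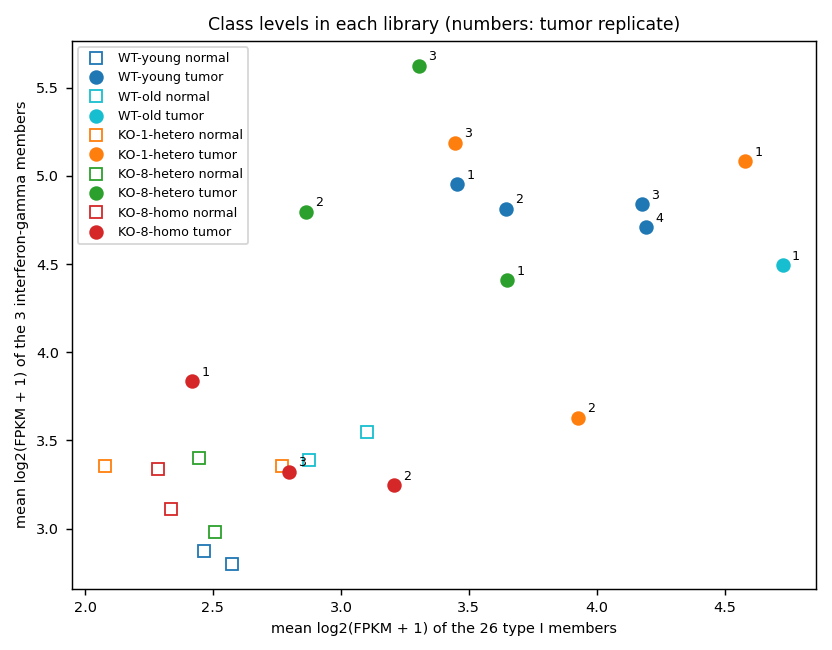
Mean log2(FPKM + 1) of the 26 type I members (horizontal axis) and of the 3 interferon-gamma members (vertical axis) in each of the 24 libraries; open squares are normal libraries and filled circles tumors, numbered by replicate. Normal libraries and KO-8-homo tumors share the lower left, KO-8-hetero tumor 3 is highest on the interferon-gamma axis, and the WT-old tumor is farthest right.

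The remaining values by role show the same spread between KO tumors. Oas2 measured 26.8, 10.1 and 3.9 FPKM in KO-1-hetero tumors, 3.81, 1.85 and 2.36 in KO-8-hetero tumors and 1.3, 3.29 and 2.43 in KO-8-homo tumors. Oasl2, in the same order, measured 81.7, 44.5 and 33.5, then 31.04, 20.98 and 31.1, then 8.92, 20.1 and 14.3 FPKM. For both, KO-1-hetero tumor 1 was far above the rest. Ifit3 measured 24.5, 14.95 and 6.67 FPKM, 11.9, 8.52 and 6.97 FPKM and 2.42, 7.09 and 3.91 FPKM in these groups, and 11.2, 12.5, 18.6 and 11.97 in WT-young tumors. Rsad2 measured 6.1, 3.33 and 2.59 FPKM, 3.24, 1.65 and 1.21 FPKM and 0.931, 3.9 and 1.31 FPKM, and 2.65, 3.66, 8.84 and 5.66 in WT-young tumors. The groups overlapped for Rsad2, with KO-8-homo tumor 2 above 2 of the KO-1-hetero tumors. Usp18 measured 29.4, 24.8 and 10.05 FPKM, 23.7, 5.43 and 10.3 FPKM and 8.21, 15.8 and 12.2 FPKM, so that KO-8-homo lay inside the KO-8-hetero range.

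Values of the transcription factors and Socs1 complete the tumors. Irf9 measured 33.4, 30.5 and 26.9 FPKM in tumors of KO-1-hetero, 34.3, 19.3 and 24.5 in those of KO-8-hetero and 20.3, 21.9 and 20.99 in those of KO-8-homo. All of these were at or below the lowest WT-young tumor at 34.3 FPKM. Stat2 measured 25.7, 15.7 and 16.3 FPKM, 15.2, 9.75 and 18.4 FPKM and 8.53, 11.6 and 9.77 FPKM in the same groups, against 12.1, 13.8, 17.2 and 17.2 in WT-young tumors. KO-8-homo was below WT-young for Stat2 and the other KO groups overlapped it. Irf7 measured 142, 89.3 and 55.2 FPKM in KO-1-hetero tumors and 56.98, 28.1 and 41.8 in KO-8-hetero tumors. Socs1, the kinase inhibitor, measured 7.09, 2.64 and 6.37 FPKM in KO-1-hetero tumors and 3.54, 5.1 and 10.3 in KO-8-hetero tumors, each a wide range.

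Finally, tumors were compared with normal tissue of the same title group, a set of fits chosen after the values had been seen. In WT-young 27 members were higher in tumors (13.7% of all genes), with a median log2 difference of 1.24; without WT-young normal 1 there were 15. In KO-1-hetero 29 were higher (6.93% of all genes), with a median of 1.22. That count was 8 without tumor 1 and 8 with a term for Xist, which was above 1 FPKM in both normal libraries and 1 of 3 tumors. The share of all genes called in those fits is not given here. Leaving out a normal library leaves 1 in that group. When any 1 library was left out, the median over members ran from 1.00 to 1.48. In KO-8-hetero 17 were higher (21.9% of all genes), with a median of 0.85. In KO-8-homo 7 were higher (11.8% of all genes), with a median of 0.48, and 8 members had lower means in tumors than in normal tissue on the log scale. The 7 were Parp9, Usp18, Irf9, Dtx3l, Rtp4, Ifit2 and Ddx58, all chosen after their values were seen, of which Usp18 had 1.96 ± 0.47 (standard error; adjusted p = 0.00827 by limma); no more than 3 passed when any 1 of the 5 KO-8-homo libraries was left out. Cxcl9 in KO-8-homo had 1.34 ± 0.63 (standard error; adjusted p = 0.133 by limma), from normal values of 1.49 and 1.82 FPKM. Irf7 there had -1.15 ± 0.47 (standard error; adjusted p = 0.0843 by limma), with normal values of 84.5 and 61.99 FPKM above all 3 tumors.

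The tumor difference of KO-8-homo was tested against those of the other groups. It was smaller than that of KO-8-hetero for 1 member, where 1.8% of all genes were called lower, and 9 members had an unadjusted p below 0.05, all lower, against 10.9% of all genes. That member was Eif2ak2, the kinase PKR, which halts translation on duplex RNA, with a difference of -1.42 ± 0.30 (standard error; adjusted p = 0.0227 by limma). Eif2ak2 measured 15.8, 14.6 and 13.9 FPKM in KO-8-homo tumors and 13.3 and 10.8 in normal tissue, against 19.96, 16.2 and 18.2 and 5.45 and 4.34 in KO-8-hetero. The KO-8-hetero normal libraries were the 2 lowest of the normal libraries for this gene. The count was 0 without KO-8-hetero normal 2, without KO-8-homo tumor 2 or 3, or without either KO-8-homo normal library, 2 without KO-8-hetero tumor 1 (with Cxcl10) or 2 (with Ifit2), and 4 without KO-8-hetero normal 1 (with Ddx58, Dtx3l and Parp14). Against WT-young 0 members were called, as were 0% of all genes, with 10 lower at an unadjusted 0.05, against 3.63% of all genes. All 38 differences were negative there, with a median of -0.78; the tumor difference of Cxcl9 was smaller by a log2 value of -2.94 ± 0.87 (standard error; adjusted p = 0.355 by limma).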

How the data were processed

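Colorectal tumor and normal tissue of AOM/DSS-treated mice was measured by RNA-seq in 24 libraries, made from total RNA with a stranded poly(A) kit, per the labels' protocols. The deposited values are FPKM per gene symbol. The submitters' processing notes name TopHat2 2.1.1, Bowtie2 2.2.8, SAMtools 0.1.18, Cuffdiff 2.2.1 and the mouse build mm10, with no role or order. FPKM are normalized values, so no count test was used, and low genes keep little of their depth. Values were tested as log2(FPKM + 1) with limma 3.58.1 in R 4.3.3, over genes with at least 1 FPKM in at least 4 libraries, with Benjamini-Hochberg adjustment over all 13799 genes tested and a threshold of 0.05. Comparisons by genotype label, and the interaction, came from a model of the combinations of label and tissue, which pools the title groups under each label. Comparisons of title groups came from a model of the 10 title groups. Neither model had covariates. The fits were first tested on simulated data. Tables and plots used Python 3.11.15, numpy 2.4.6, pandas 2.3.3 and matplotlib 3.10.9.

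The members, classes and gene lists were chosen with earlier results of these data known. Genes with values in every library were named by role: Irf1, Irf7, Irf9, Stat2, Cxcl9, Cxcl10, Socs1, Usp18, Isg15, Ifit1, Ifit3, Rsad2, Oas2, Oasl2, Zbp1 and Bst2. To these came, for each comparison, the 5 members past the threshold with the smallest p, or the 2 with the smallest p where none passed, and Ifng, Ifnb1, Ciita and Ido1. A further gene of this rule is not reported here. Tumor against normal tissue within a title group, and the differences between those, were added after the data had been seen, and members named for them, with others named in the report to show a spread, were chosen by their values. Alternatives covered the pseudocount, the filter, scaling, library weights, a replicate block, a term for Xist, and leaving out libraries or title groups.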

Additional observations from a re-analysis of the deposited data

Results flagged for a closer look

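Single libraries stood far from the rest of their group in 8 of 80 groups of 4 to 9 libraries tested for the 16 members followed by role. The nominal rate of about 1 in 20 assumes separate groups and normally distributed values. The WT-young tumors were counted again among the WT-labelled tumors, and FPKM were used unlogged, so the flags cannot be set against chance. In the WT-old tumor, Irf9 was 49.8 FPKM and Ifit3 50.8 FPKM, the highest of the 5 WT-labelled tumors. In WT-young tumor 4, Usp18 was 17.2 FPKM, the lowest both of the 4 WT-young tumors and of the 5 WT-labelled tumors. In WT-young tumor 3, Oas2 was 7.95 FPKM, the highest of the WT-young tumors. In KO-1-hetero tumor 1, Isg15 was 126 FPKM, Oas2 26.8 FPKM and Oasl2 81.7 FPKM, each the highest of the 9 KO-labelled tumors by a wide gap.

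The tumor difference of Eif2ak2 was smaller in KO-8-homo than in KO-8-hetero by a tested log2 difference of -1.42 (limma adjusted p = 0.0227). It was the only one of 38 members called, where 1.8% of all genes were called lower. The call was lost in 6 of 18 alternative fits, with limma adjusted p up to 0.149. This contrast was added after the data had been seen.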

How the results depend on the processing

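No called result changed its direction. The median over members for KO-1-hetero against WT-young tumors, near 0, changed sign: it was 0.02 with library weights and ran from -0.31 to 0.07 when 1 library was left out. Counts of called members that moved by over 1.5 times were as follows, and the cause was not tested. The share of all genes called in each refit is not given here or below. A moved count can therefore not be read as particular to the members. With library weights, 16 members passed for KO against WT tumors, 6 for KO-1-hetero against WT-young, 26 for KO-8-homo against WT-young, and, for tumor against normal tissue, 6 in KO-8-hetero, 18 in KO-8-homo and 14 in WT-young. The difference of KO-8-homo from KO-8-hetero in that contrast then had 0. With a term for Xist, the counts were 0 for KO-1-hetero against WT-young, 8 for tumor against normal tissue in KO-1-hetero and 3 for that difference. Quantile normalization gave 2 for KO-1-hetero against WT-young, no filter gave 4 for tumor against normal tissue in KO-8-homo, a fit of the compared groups alone gave 10 for KO-8-homo against WT-young, and leaving out KO-8-hetero gave 1 for KO against WT tumors. Deviations of same-numbered tumor and normal libraries from their group means had r from -0.16 to 0.35 (8 pairs, 1 over 0.1). With 2 normal libraries per title group, their deviations mirror each other, so these values cannot show whether libraries were paired. With the number as a replicate block, 0 members passed for KO-1-hetero and 2 for KO-8-homo against WT-young, and 22 and 24 for tumor against normal tissue under the WT and KO labels; Socs1 and Oasl2 were among those lost under the WT label.

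Leaving out 1 library at a time gave 21 to 28 members for tumor against normal tissue under the WT label and 23 to 26 under the KO label. Within title groups it gave 0 to 27 in KO-1-hetero, 12 to 18 in KO-8-hetero, 0 to 3 in KO-8-homo, 15 to 27 in WT-young, and 0 to 4 for the difference of KO-8-homo from KO-8-hetero. Among tumors it gave 2 to 6 for KO-8-homo against WT-young, 0 to 2 for KO-8-homo against KO-8-hetero, 0 to 2 for KO-8-hetero and 0 to 1 for KO-1-hetero against WT-young, and 0 to 1 between the hetero groups. For KO against WT in tumors, in normal tissue and for the interaction it gave 0 throughout. The median over members moved by more than the spread between replicates in 3 fits: to 0.91 for tumor against normal tissue under the WT label and to -0.01 for the interaction, both with library weights, and to -0.34 for KO against WT tumors without KO-8-homo. Within that spread, it was -0.10 for KO against WT in normal tissue without WT-old and -0.11 for the interaction without KO-8-homo. Leaving out 1 library gave medians from 0.24 to 0.67 between the hetero groups, -0.52 to -0.24 for KO-8-hetero against WT-young, -0.49 to -0.22 for the interaction and -0.59 to -0.21 for the difference of KO-8-homo from KO-8-hetero. Depth limits Cxcl11, Mx2 and the interferon genes, which were near or below 1 FPKM.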
